A study of Homo sapiens with 6 samples.

Results

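The genes described here are the kinesins and the centromere proteins, taken as every symbol in the count table that is KIF with a number and an optional letter A to C, or CENP with 1 letter. The rule found 60 of the 60835 distinct symbols, 39 kinesin genes and 21 CENP genes. RNA was sequenced from PANC-1, an established human line of pancreatic epithelioid carcinoma, after knockout of SMAD4, the common partner of the SMAD transcription factors that act downstream of TGF-β and BMP receptors. The first group of 3 libraries came from knockout cells transfected with SMAD4 carrying the R272K substitution (arginine replaced by lysine). The other 3 came from knockout cells transfected with wild-type (WT) SMAD4, and all were from day 3. Every library thus came from SMAD4 knockout cells with an introduced SMAD4, and knockout cells without an introduced SMAD4 were not analysed here. Neither the construct's promoter nor the number of knockout clones is stated in the sources used here. The labels leave unsaid whether replicates were separate cultures, so the p-values cover the spread among these libraries alone, and that spread may be technical.

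Kinesins are motor proteins that use ATP to walk along microtubules or to take their ends apart. One set of them works in dividing cells, where they push spindle poles apart, move chromosomes and build the midzone for cytokinesis, and another carries vesicles, organelles and cilium components. CENP genes encode proteins of the centromere: an inner network sits on CENPA nucleosomes through most of the cell cycle, and an outer group that includes the motor CENPE joins the kinetochore in late cell cycle stages and mitosis. Transcripts of many mitotic members peak before and during mitosis, under the cell-cycle complexes that bind CHR elements (cell cycle genes homology regions) and under NF-Y, which binds CCAAT boxes. In RNA from whole cultures, more cells near mitosis and more transcript per cell cannot be told apart.

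Each library held 14776148 to 17706201 counts over distinct symbols. SMAD4 itself stood at 40.6, 45.6 and 43.6 CPM (counts divided by the scaled library size) in the R272K libraries, against 83.4, 93.6 and 89.0 CPM in the WT libraries (log2 fold change -1.03, SE 0.075, adjusted p = 6.28e-06). The amount of SMAD4 and the substitution therefore cannot be told apart in any difference below. Of 6 epithelial markers 4 were higher and 2 lower with R272K, and the keratin gene KRT8 was the most abundant, at 3077 TPM (length-scaled abundance) with R272K and 2420 TPM with WT SMAD4. The keratin gene KRT19 was at 299 TPM with R272K and 315 TPM with WT SMAD4, while 10 markers of blood, vessel, stromal, acinar, islet and liver cells were all too low to test. WT replicate 1 stood apart on the first principal component, at 31.3 against -15.6 to 9.56 for the other 5 libraries. Longer genes ran lower in it than in its group (Spearman's rho -0.41 between gene length and that ratio; genes are not independent replicates). Relative length was scaled to 1 for the median of genes with counts in every library. Tested members have a median of 1.70, against 1.17 for all genes tested, so results are given with and without WT replicate 1 where it matters.

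The outer kinetochore gene CENPF rose in cells with R272K SMAD4. Fitted fold changes of 11 of 12 tested mitotic kinesins were above 0 but small, and none was called, while the medians of transport kinesins and inner centromere genes lay near that of all genes. Of the 60 members, 55 had enough counts to be tested by edgeR's quasi-likelihood test. The test called 1 of them at a Benjamini-Hochberg adjusted p under 0.05, CENPF, which was higher. Over all 15911 genes tested 1.21% were called, and 0.685% were called higher. At an unadjusted p under 0.05, 9 members were higher and 1 lower, against 7.18% and 7.09% of all genes. The 3 R272K libraries lay above the 3 WT libraries for 10 members, where 10.9% of all genes did, and below them for 3 members, where 10.4% did. The median log2 fold change was 0.15 for 12 mitotic kinesins, 0.02 for 15 transport kinesins, 0.02 for 17 inner centromere genes and 0.00 for all genes.

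**Figure D1:**
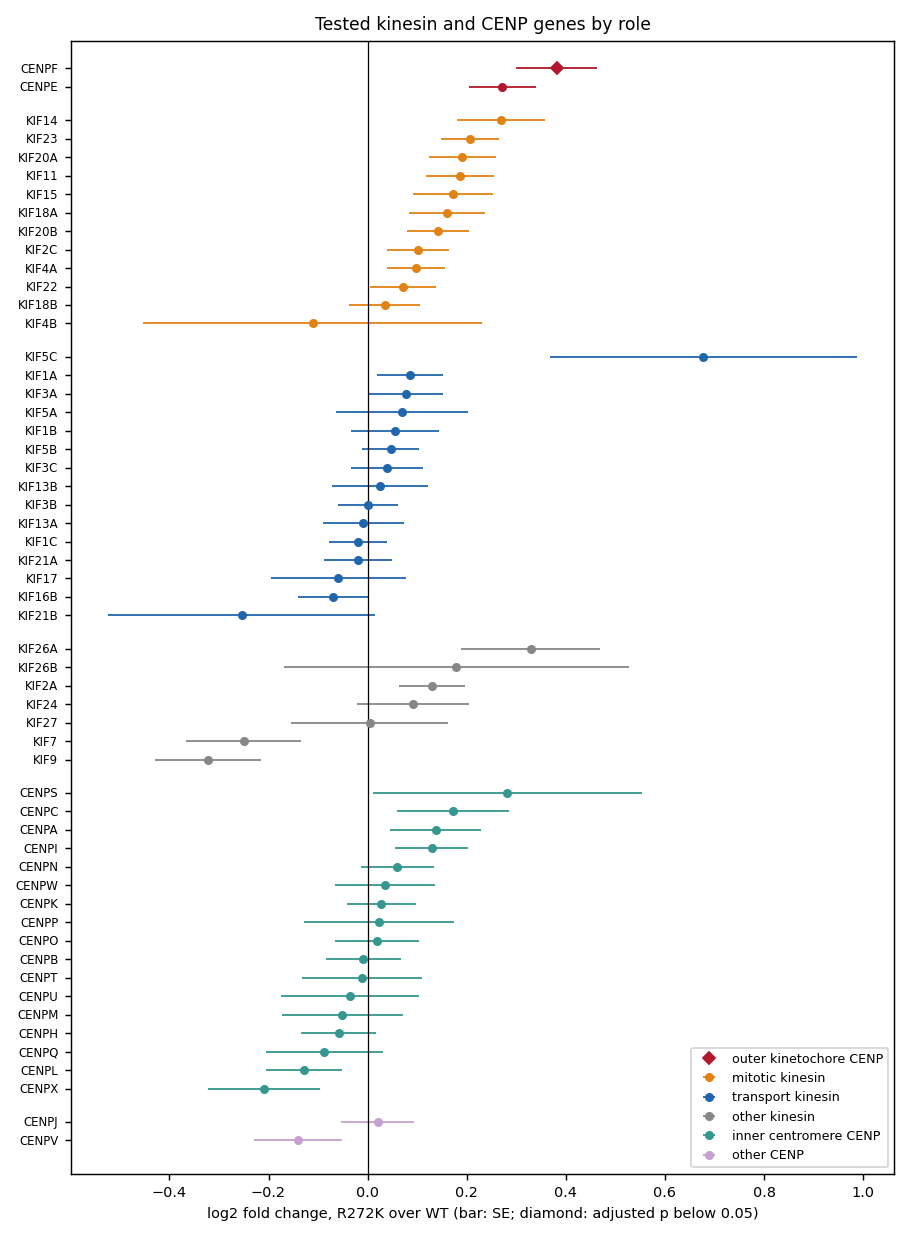
Log2 fold change (R272K over WT) of the 55 tested members, grouped by role on the vertical axis, with bars of 1 SE from edgeR and a diamond for the called gene. CENPF, at 0.38, is the diamond, and 11 of the 12 mitotic kinesins lie right of 0.

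The outer kinetochore gave the only called member. CENPF (ENSG00000117724, plus strand of chromosome 1, 214603185 to 214664574 on GRCh38) encodes a large microtubule-binding protein that gathers at the kinetochore corona and is widely used as a marker of proliferating cells. It stood at 494, 491 and 475 CPM in the R272K libraries, against 321, 411 and 389 CPM in the WT libraries. All R272K values lay above all WT values, and WT replicate 1 was the lowest. CENPF rose to 486 ± 10.4 CPM with R272K, against 374 ± 46.5 CPM with WT SMAD4 (SD, n = 3 each) (log2 fold change 0.38, SE 0.081, adjusted p = 0.0381). Without WT replicate 1 the log2 fold change was 0.28 and the gene remained called (adjusted p = 4.58e-06). The call was lost when any 1 R272K library was left out (adjusted p = 0.234, 0.213 and 0.200 without replicates 1, 2 and 3) and on the TPM values with limma (adjusted p = 0.158 on log2(TPM + 1)). No exon base of CENPF is shared with another gene in GENCODE 29.

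CENPE (ENSG00000138778, minus strand of chromosome 4, 103105349 to 103198445) is the kinesin motor of the corona, which carries chromosomes toward the spindle equator and was grouped here with CENPF. Its level was 106, 105 and 106 CPM in the R272K libraries, against 81.4, 90.2 and 91.4 CPM in the WT libraries. The R272K libraries were nearly equal and lay above every WT library. The means were 106 ± 0.535 CPM with R272K and 87.6 ± 5.47 CPM with WT SMAD4 (log2 fold change 0.27, SE 0.067, adjusted p = 0.0754), which was not called. It was called without WT replicate 1 (log2 fold change 0.22, adjusted p = 0.00621) and by DESeq2 on all 6 libraries (adjusted p = 0.0464).

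Mitotic kinesins lay mostly to 1 side by small amounts, with 11 of 12 higher in R272K cells and 0 called. Over all genes tested 49.7% had a fold change above 0 and 1.21% were called. The median of the 12 corresponds to 11.1% more transcript, and their log2 fold changes ran between -0.11 and 0.27. For 7 of the 12, KIF11, KIF14, KIF18A, KIF20A, KIF20B, KIF23 and KIF4A, every R272K library lay above every WT library, against 10.9% of all genes, and for 0 of the 12 was it below, against 10.4%. Each of the 12 had its highest level in an R272K library, 5 in replicate 1, 2 in replicate 2 and 5 in replicate 3.

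**Figure D2:**
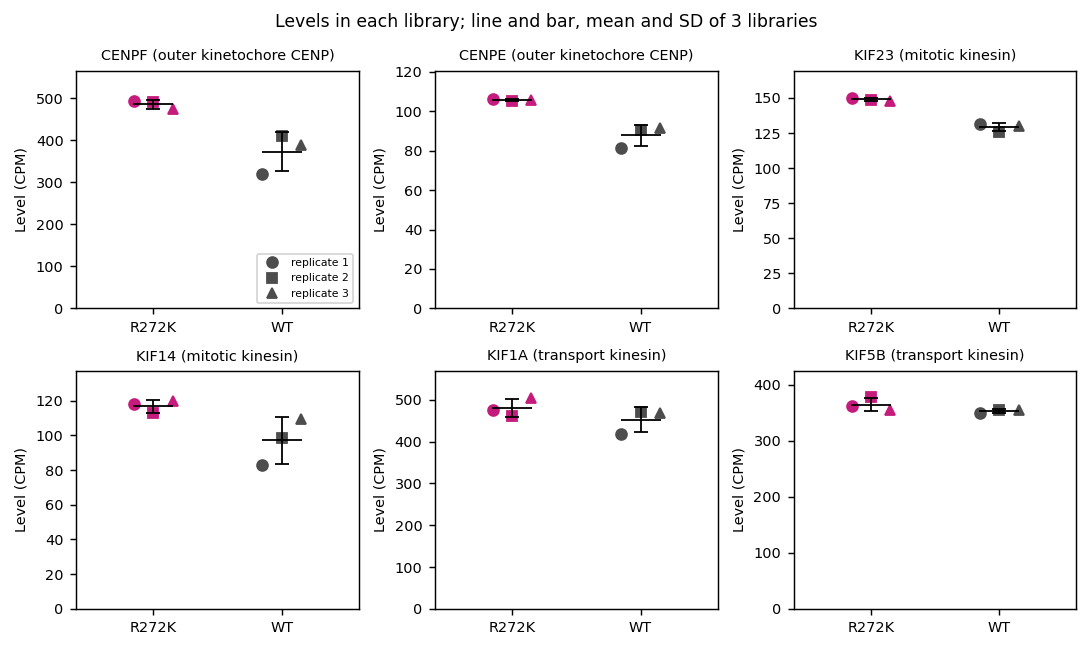
CPM in each library (points; line and bar, mean and SD of 3 libraries) for CENPF, CENPE, the cytokinesis kinesins KIF23 and KIF14 and the transport kinesins KIF1A and KIF5B, R272K left of WT in each panel. The first 4 genes have R272K above WT with no overlap, while KIF1A and KIF5B overlap.

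KIF23 had the smallest p of the mitotic kinesins. This motor (ENSG00000137807, plus strand of chromosome 15, 69414246 to 69448427) bundles midzone microtubules as a subunit of centralspindlin. It stood at 150, 149 and 148 CPM in the R272K libraries, against 131, 126 and 130 CPM in the WT libraries. Both groups were tight and well apart. The means were 149 ± 0.993 CPM with R272K and 129 ± 2.85 CPM with WT SMAD4 (log2 fold change 0.21, SE 0.059, adjusted p = 0.121). With WT replicate 1 left out it was called (0.22, adjusted p = 0.00256), 1 of 3 members called there beside CENPF and CENPE, where 5.36% of genes were called in all and 2.94% called higher.

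KIF14 (ENSG00000118193, minus strand of chromosome 1, 200551497 to 200620751) brings citron kinase to the midbody, the bridge between daughter cells. Its values were 118, 113 and 120 CPM in the R272K libraries, against 82.8, 98.8 and 110 CPM in the WT libraries, so the groups did not overlap, but WT libraries spread widely. The means were 117 ± 3.76 CPM with R272K and 97.1 ± 13.5 CPM with WT SMAD4 (log2 fold change 0.27, SE 0.089, adjusted p = 0.185). Without WT replicate 1 it was 0.16 (adjusted p = 0.0642), over 1.5 times smaller, and without WT replicate 3 it was called (adjusted p = 0.0377). KIF2C (chromosome 1, 44739818 to 44767767, plus strand), the microtubule depolymerase that corrects wrong attachments at centromeres, was the most abundant mitotic kinesin per length, at 155 ± 3.87 TPM with R272K and 142 ± 2.23 TPM with WT SMAD4. Its 148, 148 and 139 CPM in the R272K libraries overlapped the 141, 132 and 132 CPM in the WT libraries, and the log2 fold change was 0.10 (SE 0.063, adjusted p = 0.496).

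None of the remaining mitotic kinesins was called. KIF20A, which brings the chromosomal passenger complex to the midzone, was at 80.9, 84.9 and 89.7 CPM in the R272K libraries, against 72.1, 74.1 and 77.6 CPM in the WT libraries (log2 fold change 0.19, adjusted p = 0.219). KIF11, the motor that slides spindle microtubules apart to make the spindle bipolar, was at 186, 183 and 179 CPM with R272K, against 146, 162 and 173 CPM with WT SMAD4 (0.19, adjusted p = 0.238, and 0.12 without WT replicate 1). In both genes the groups were apart. The log2 fold change was 0.17 for KIF15, which can take over part of the work of KIF11, and 0.16 for KIF18A, which damps chromosome movement at the equator. It was 0.14 for KIF20B, needed late in cytokinesis, and 0.10 for KIF4A, a chromosome arm and midzone motor. The chromosome motor KIF22 stood at 0.07, and KIF18B, a plus-end partner of KIF2C, at 0.03. KIF4B, an intronless copy of KIF4A whose reads may be divided with it, was the exception at -0.11, from a level of 0.856 CPM with R272K and 0.925 CPM with WT SMAD4.

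Promoters of mitotic kinesins are shown next because nearly all of the group lay on 1 side and because CHR elements and CCAAT boxes are known from such genes. RefSeq promoters on GRCh38.p14, 250 bases before to 50 after the start, were found for 49 of the 60 members, and were searched on both strands for the CHR core TTTGAA as well as for the box CCAAT. The CHR core was present for 9 of 13 mitotic kinesins, 1 of 12 transport kinesins (KIF5B), 4 of 13 inner centromere genes (CENPA, CENPC, CENPN and CENPO), 0 of 8 other kinesins and 1 of the 2 outer kinetochore genes (CENPF), against 15.2% of all 34943 promoters. The CCAAT box was present for 10 of 13 mitotic kinesins, 3 of 12 transport kinesins and 8 of 13 inner centromere genes, against 34.6% of all promoters. Both motifs stood in 8 of 13 mitotic and 1 of 12 transport kinesin promoters, and in 5.92% of all promoters. The 13 include KIF2B, which was too low to test and has neither motif. They also include both KIF4A and KIF4B, whose sequences around the start are nearly the same. Neither motif was found for CENPE (log2 fold change 0.27) or KIF2C (0.10). KIF20A (0.19) and KIF22 (0.07) had the CCAAT box alone, and KIF15 (0.17) had the CHR core alone. Both were found for KIF18B (0.03) and for KIF4B (-0.11), the 1 tested mitotic kinesin that was lower. Promoters of the called gene, the 2 mitotic kinesins of smallest p, KIF11 and the transport kinesin with a match follow. KIF20A, with a smaller p than KIF11, is not shown. The sequences are in lower case 5′ to 3′, with capitals for either motif or its reverse complement.
CENPF (chr1:214602945-214603244, plus strand): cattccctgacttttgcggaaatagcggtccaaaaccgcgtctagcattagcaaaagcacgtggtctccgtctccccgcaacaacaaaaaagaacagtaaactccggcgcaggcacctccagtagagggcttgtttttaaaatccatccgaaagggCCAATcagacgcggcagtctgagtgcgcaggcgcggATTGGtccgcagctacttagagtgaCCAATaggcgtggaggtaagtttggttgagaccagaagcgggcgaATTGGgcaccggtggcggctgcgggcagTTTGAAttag
KIF23 (chr15:69414099-69414398, plus strand): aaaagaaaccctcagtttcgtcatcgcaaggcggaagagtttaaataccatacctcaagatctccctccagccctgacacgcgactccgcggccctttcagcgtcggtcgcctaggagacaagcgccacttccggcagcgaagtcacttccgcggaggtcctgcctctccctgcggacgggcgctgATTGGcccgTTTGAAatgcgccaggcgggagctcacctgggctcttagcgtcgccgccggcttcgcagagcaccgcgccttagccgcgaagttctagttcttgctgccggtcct
KIF14 (chr1:200620702-200621001, minus strand): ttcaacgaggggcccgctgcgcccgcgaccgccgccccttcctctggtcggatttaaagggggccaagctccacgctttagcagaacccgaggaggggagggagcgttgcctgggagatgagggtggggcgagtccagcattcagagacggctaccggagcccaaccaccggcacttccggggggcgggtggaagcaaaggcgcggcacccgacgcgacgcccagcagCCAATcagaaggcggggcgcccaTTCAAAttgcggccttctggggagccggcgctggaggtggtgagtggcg
KIF11 (chr10:92592880-92593179, plus strand): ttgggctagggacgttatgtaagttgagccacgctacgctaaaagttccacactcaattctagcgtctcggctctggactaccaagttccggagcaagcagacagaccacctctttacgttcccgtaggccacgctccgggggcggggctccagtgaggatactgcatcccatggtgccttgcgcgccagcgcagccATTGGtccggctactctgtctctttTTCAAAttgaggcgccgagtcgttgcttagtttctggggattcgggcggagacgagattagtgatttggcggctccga
KIF5B (chr10:32056376-32056675, minus strand): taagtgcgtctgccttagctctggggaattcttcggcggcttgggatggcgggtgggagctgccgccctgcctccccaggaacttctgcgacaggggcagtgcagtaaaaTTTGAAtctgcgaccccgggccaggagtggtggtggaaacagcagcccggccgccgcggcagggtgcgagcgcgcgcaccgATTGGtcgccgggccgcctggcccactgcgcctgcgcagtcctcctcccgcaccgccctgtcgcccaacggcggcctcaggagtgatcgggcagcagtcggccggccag

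The mitotic examples printed, all chosen from promoters with both motifs, carry a CCAAT box just upstream of the TTTGAA. In KIF5B, the only transport kinesin promoter with both, the order is the other way round. In KIF23 a forward TTTGAA lies at -55 to -50 from the start, behind a reverse CCAAT at -64 to -60. In KIF14 a reverse TTTGAA lies at 2 to 7 behind a forward CCAAT at -22 to -18, and in KIF11 both are reverse, the TTTGAA at -28 to -23 and the CCAAT at -53 to -49. CENPF has 4 CCAAT matches, 2 on each strand, and its forward TTTGAA falls at 41 to 46, inside the transcribed part. In KIF5B a forward TTTGAA is at -140 to -135 and a reverse CCAAT nearer the start, at -59 to -55. The variant TTTAAA, searched after promoters without TTTGAA had been read, stood in 4 of 13 mitotic kinesin promoters, KIF14, KIF20A, KIF23 and KIF2C, in both outer kinetochore genes and in 12.2% of all promoters. The SMAD palindrome GTCTAGAC was in 0 of 49 member promoters and 0.203% of all, and CAGACA, which contains a short SMAD-binding element, was in 7 of 49 and 16.9% of all. A match is a description of letters, and binding was not measured.

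The transport kinesins, set beside the mitotic ones, had 9 of 15 higher, 6 lower, 0 called and 0 with groups apart. Over all genes tested 49.7% had a fold change above 0 and 1.21% were called, and the mitotic kinesins had 0 called too. Groups were apart for 10.9% of all genes on the higher side and 10.4% on the lower side. KIF5B (chromosome 10, 32009015 to 32056425, minus strand), the widely expressed heavy chain of conventional kinesin, was the most abundant kinesin per length, at 196 ± 4.53 TPM with R272K and 187 ± 11.4 TPM with WT SMAD4. Its CPM were 362, 378 and 354 in the R272K libraries, against 349, 354 and 356 in the WT libraries, which overlap (log2 fold change 0.05, SE 0.058, adjusted p = 0.762). KIF1A (chromosome 2, 240713761 to 240824293, minus strand), known in neurons as the carrier of synaptic vesicle precursors, was nearly as abundant, at 166 ± 9.45 TPM with R272K and 155 ± 17.7 TPM with WT SMAD4. It had 477, 461 and 504 CPM in the R272K libraries, against 419, 472 and 469 CPM in the WT libraries (0.09, SE 0.066, adjusted p = 0.598), again overlapping. Without WT replicate 1 the KIF1A value was 0.03.

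KIF5C (chromosome 2, 148875227 to 149026759, plus strand), the neuronal heavy chain, had the largest fitted fold change of all tested members but a very low level. It stood at 1.31, 2.06 and 1.76 CPM in the R272K libraries, against 1.37, 1.01 and 0.786 CPM in the WT libraries, and the lowest R272K library fell below the highest WT library (log2 fold change 0.68, SE 0.31, adjusted p = 0.345). Within kinesin-2, the motor of intraflagellar transport, KIF3B was at 124 ± 3.23 TPM with R272K and 123 ± 9.41 TPM with WT SMAD4, well above its partners. KIF3A was at 28.1 TPM with R272K and 26.3 TPM with WT SMAD4, and KIF3C at 24.8 TPM with R272K and 23.9 TPM with WT SMAD4. The log2 fold change was 0.00 for KIF3B, 0.08 for KIF3A and 0.04 for KIF3C. The vesicle carriers KIF1B (0.05), KIF1C (-0.02), KIF13A (-0.01), KIF13B (0.02), KIF16B (-0.07) and KIF17 (-0.06), the neuronal KIF5A (0.07) and the microtubule plus-end regulators KIF21A (-0.02) and KIF21B (-0.25) completed the group, with adjusted p between 0.684 and 0.994 for all transport kinesins other than KIF5C, KIF5B and KIF1A.

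Set against each other, mitotic and transport kinesins differed by library group. The median log2 deviation of the 12 mitotic kinesins from their own mean was 0.07, 0.09 and 0.08 in the R272K libraries, against -0.09, -0.08 and -0.04 in the WT libraries. For the 15 transport kinesins it was 0.00, 0.01 and 0.01 with R272K, against -0.07, 0.02 and 0.06 with WT SMAD4, so WT replicate 1 was low in both roles. Taking the transport median from the mitotic median in each library left 0.08, 0.07 and 0.07 for R272K, against -0.02, -0.10 and -0.10 for WT. The summed level of mitotic kinesins was 1234, 1231 and 1228 CPM in the R272K libraries, against 1082, 1110 and 1138 CPM in the WT libraries, which do not overlap. That of transport kinesins was 1772, 1768 and 1770 CPM with R272K, against 1646, 1763 and 1783 CPM with WT SMAD4, which do. No p is given for these sums, because the roles were set with results of these data known.

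**Figure D3:**
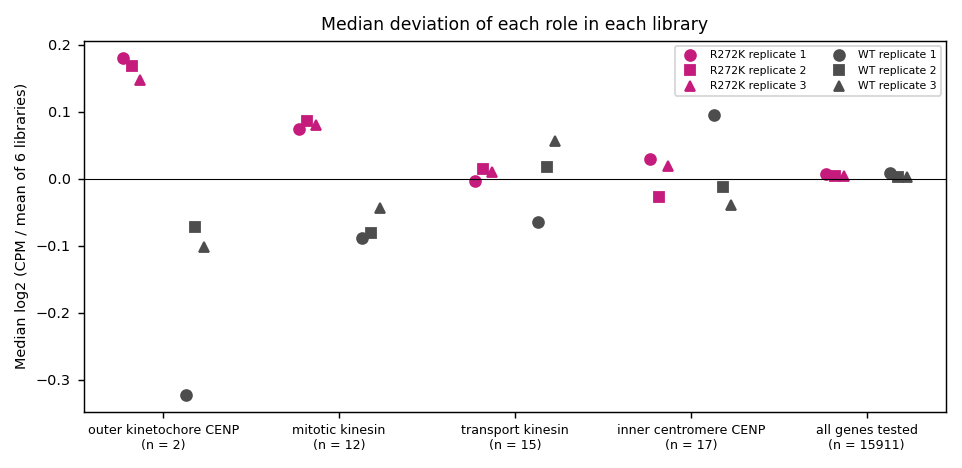
Median log2 deviation of the tested members of 4 roles, and of all genes tested, from their mean over the 6 libraries, by library (points), R272K left of WT. Mitotic kinesins lie between 0.07 and 0.09 in R272K libraries and between -0.09 and -0.04 in WT libraries, and inner centromere genes are highest in WT replicate 1.

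Gene length and WT replicate 1 moved with part of these values. The median relative length was 1.47 for mitotic kinesins, 2.21 for transport kinesins, 0.834 for inner centromere genes and 3.18 for CENPF and CENPE. WT replicate 1 was the lowest library for 6 of 12 mitotic and 7 of 15 transport kinesins and for both outer kinetochore genes, and the highest for 8 of 17 inner centromere genes. Without it the median log2 fold change was 0.13 for mitotic kinesins, with 11 of 12 higher, -0.01 for transport kinesins, with 5 of 15 higher, and 0.04 for inner centromere genes, with 12 of 17 higher. With each library's length trend removed instead, the medians were 0.13 for mitotic and -0.04 for transport kinesins, against -0.01 for all genes. Single fold changes moved by over 1.5 times without WT replicate 1 for 31 of the 55 tested members, 2 of 12 mitotic kinesins, 11 of 15 transport kinesins and 12 of 17 inner centromere genes among them, and 13 of the 31 changed sign. The direction of the transport and inner centromere medians depended on the setting, while that of the mitotic median was the same in every fit, between 0.12 and 0.17.

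**Figure D4:**
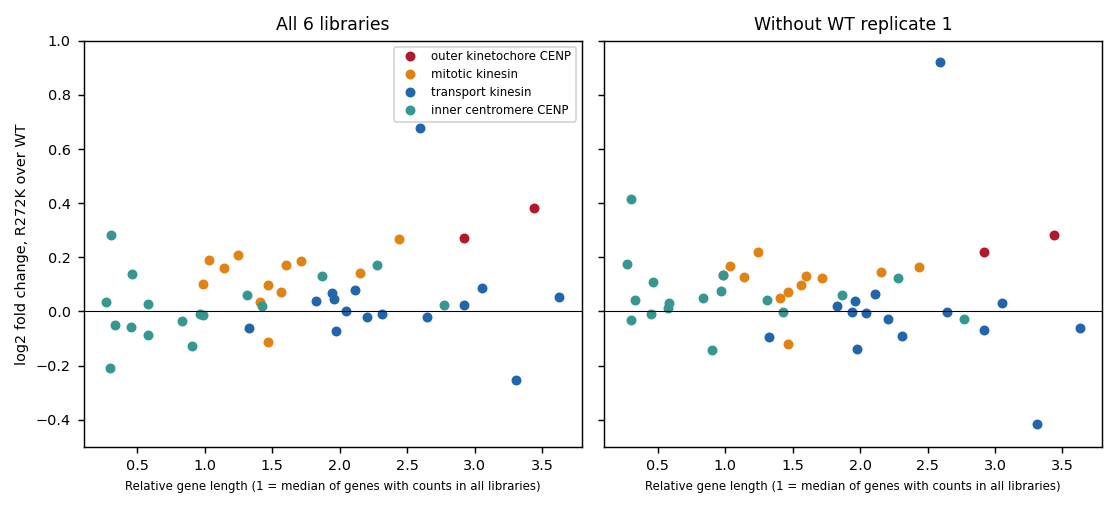
Log2 fold change (R272K over WT) of tested members of 4 roles (colours) against relative gene length, with all 6 libraries in the left panel and without WT replicate 1 in the right. Mitotic kinesins stay above 0 in both panels apart from KIF4B, while the transport kinesin median is 0.02 in the left panel and -0.01 in the right.

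The inner centromere genes showed no shared direction, with 9 of 17 higher, 8 lower, 0 called and 0 at an unadjusted p under 0.05. Over all genes tested 1.21% were called. At an unadjusted p under 0.05, 7.18% of all genes were higher and 7.09% lower, so few would be looked for among 17. CENPX (chromosome 17, 82018702 to 82024107, minus strand), a short histone-fold protein that pairs with CENPS, had the smallest p. It stood at 60.7, 68.0 and 62.7 CPM in the R272K libraries, against 90.6, 67.3 and 63.1 CPM in the WT libraries, so the 1 high WT library sets the difference (log2 fold change -0.21, SE 0.114, adjusted p = 0.43, and -0.03 without WT replicate 1). CENPI (chromosome X, 101098188 to 101166126, plus strand), a subunit of the inner network needed to load CENPA, was at 109, 112 and 107 CPM with R272K, against 90.04, 102 and 107 CPM with WT SMAD4 (0.13, adjusted p = 0.452, and 0.06 without WT replicate 1). CENPB (chromosome 20, 3783851 to 3786740, minus strand), which binds a motif of alpha satellite DNA, was the most abundant CENP gene per length over all libraries together. It was at 254 ± 6.86 TPM with R272K and 251 ± 12.8 TPM with WT SMAD4, where CENPX was slightly higher at 254 TPM. The CENPB CPM of 231, 242 and 226 in the R272K libraries lay inside the WT values of 261, 228 and 213 (-0.01, adjusted p = 0.972). The sign for CENPB turned positive in 9 of 20 other fits.

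Levels per length within the centromere network ran down to CENPP, at 2.00 TPM with R272K and 1.95 TPM with WT SMAD4. Of its exon bases 42.7% are shared with opposite-strand genes, against 31.4% for CENPO and 22.8% for CENPN. The strand setting is not stated, and whether the overlap lowered these levels was not tested. CENPX was at 225 ± 12.2 TPM with R272K and 254 ± 36.9 TPM with WT SMAD4, and CENPW, the histone-fold partner of CENPT, at 153 ± 3.43 TPM with R272K and 147 ± 15.3 TPM with WT SMAD4. CENPT was at 22.8 TPM with R272K and 22.5 TPM with WT SMAD4. Of the subcomplex that includes CENPI, CENPK was at 108 TPM with R272K and 105 TPM with WT SMAD4, CENPH at 89.4 TPM with R272K and 91.7 TPM with WT SMAD4, and CENPM at 37.4 TPM with R272K and 38.0 TPM with WT SMAD4. These subunits of 1 subcomplex thus differed more from each other than between the groups. CENPA, the centromeric histone itself, was at 49.3 TPM with R272K and 44.3 TPM with WT SMAD4 (log2 fold change 0.14), and its reader CENPN at 33.5 TPM with R272K and 31.7 TPM with WT SMAD4 (0.06). CENPL, the partner of CENPN, was the only inner gene with groups apart, where 10.4% of all genes lay apart on the same, lower side. It was at 29.4, 31.9 and 31.9 CPM with R272K, against 33.4, 33.3 and 35.2 CPM with WT SMAD4 (-0.13, adjusted p = 0.481). CENPC, the scaffold that links CENPA to the outer kinetochore, was at 7.85 TPM with R272K and 6.90 TPM with WT SMAD4 (0.17). Members of the CENPO subcomplex, CENPO, CENPP, CENPQ and CENPU, had log2 fold changes between -0.09 and 0.02. CENPS stood at 0.28 from under 2 CPM in every library, and 64.8% of its exon bases are shared with other genes, the same-strand readthrough gene CENPS-CORT among them.

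**Figure D5:**
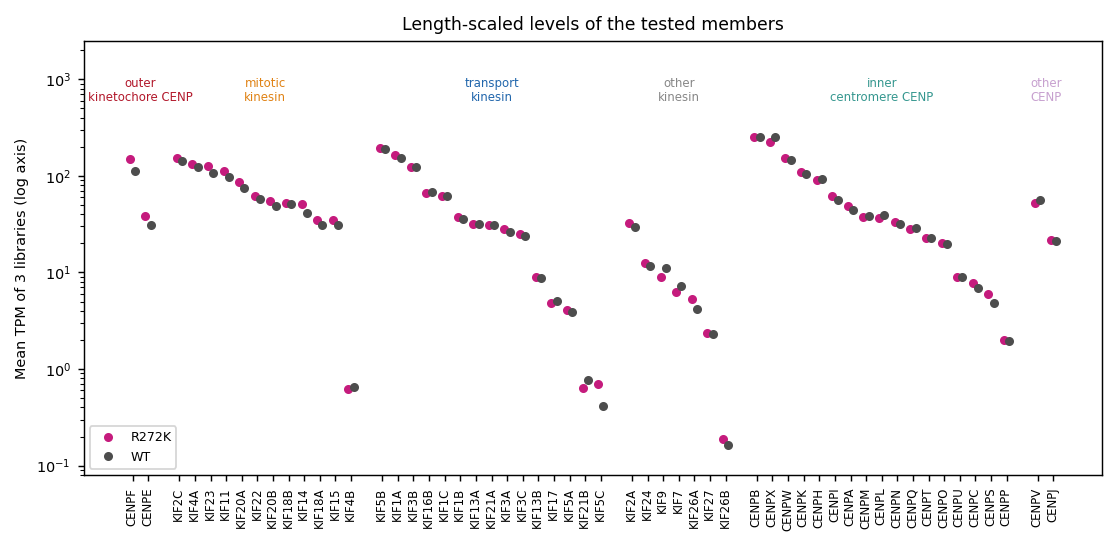
Mean TPM (log axis) of each tested member by role, R272K and WT points side by side. CENPB and CENPX are the highest centromere genes and KIF5B and KIF1A the highest kinesins, and the points of the groups nearly coincide for most genes.

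The other kinesins and the other CENP genes were few and mixed. KIF9 (chromosome 3, 47227998 to 47283451, minus strand), a kinesin of motile cilia and sperm flagella, was the member with the smallest p among those that were lower. It stood at 9.78, 9.58 and 9.45 CPM in the R272K libraries, against 12.5, 12.0 and 11.5 CPM in the WT libraries, with no overlap (log2 fold change -0.32, SE 0.107, adjusted p = 0.185). Of its exon bases 17.9% lie over opposite-strand genes, KIF9-AS1 among them, and the strand setting of the counting is not stated in the sources used here. KIF26A (chromosome 14, 104136454 to 104180894, plus strand), a kinesin-like protein without motor ATPase activity, was at 9.91, 12.6 and 12.2 CPM with R272K, against 9.81, 10.2 and 7.6 CPM with WT SMAD4, which overlap (0.33, adjusted p = 0.306). KIF2A (chromosome 5, 62306162 to 62391025, plus strand), a depolymerase of spindle poles and neurites and the most abundant of this group, was at 88.7, 92.1 and 92.7 CPM with R272K, against 77.9, 85.8 and 86.4 CPM with WT SMAD4, with no overlap (0.13, adjusted p = 0.406, and 0.08 without WT replicate 1). KIF7, which organises the tip of the primary cilium for Hedgehog signalling, was at 8.47, 9.05 and 10.03 CPM with R272K, against 10.4, 11.2 and 11.3 CPM with WT SMAD4 (-0.25, adjusted p = 0.352).

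KIF24, a kinesin that restrains cilium formation, KIF26B and KIF27 had log2 fold changes of 0.09, 0.18 and 0.00. CENPJ (chromosome 13, 24882279 to 24922889, minus strand), a centriole elongation factor despite its name, was level at 36.04, 34.003 and 34.3 CPM with R272K, against 33.8, 34.1 and 35.0 CPM with WT SMAD4 (0.02, adjusted p = 0.927). CENPV (chromosome 17, 16342534 to 16353656, minus strand), a protein of pericentromeric chromatin and the midzone, was at 28.7, 31.5 and 27.3 CPM with R272K, against 35.1, 31.4 and 29.9 CPM with WT SMAD4 (-0.14, adjusted p = 0.508, and -0.07 without WT replicate 1). In both genes the groups overlapped. The 5 members too low to test had few counts over the 3 libraries of a group. KIF2B had 1 in R272K and 1 in WT, KIF6 6 in R272K and 2 in WT, KIF12 17 in R272K and 17 in WT, KIF19 3 in R272K and 3 in WT, and KIF25 28 in R272K and 18 in WT.

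Genes that work beside the members were read from lists of partners. All 12 chromosomal passenger and mitotic kinase genes were higher in R272K cells, 8 with groups apart and 0 called (median log2 fold change 0.14). Over all genes 49.7% had a fold change above 0, and in 10.9% the R272K libraries lay apart on the higher side. AURKA, the spindle pole kinase, was at 179 ± 3.63 CPM with R272K and 156 ± 1.47 CPM with WT SMAD4 (0.20, adjusted p = 0.125), and the centrosome kinase gene NEK2 stood at 0.22 (adjusted p = 0.175). All 12 tested spindle and cytokinesis genes were likewise higher, 7 with groups apart and 0 called (median 0.14). Among them ANLN, the scaffold of the contractile ring, was at 545 ± 10.1 CPM with R272K and 457 ± 38.3 CPM with WT SMAD4 (0.25, adjusted p = 0.104), and the spindle-binding HMMR stood at 0.23 (adjusted p = 0.115). In both lists 0 genes were lower.

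Outer kinetochore and checkpoint genes other than CENPF and CENPE were divided in sign, with 13 of 22 higher, 9 lower and 0 called (median log2 fold change 0.02). At an unadjusted p under 0.05, 6 were higher and 1 lower, against 7.18% and 7.09% of all genes. Groups were apart for 6 that were higher and 1 that was lower, against 10.9% and 10.4% of all genes. The checkpoint kinase gene BUB1 was at 176 ± 4.80 CPM with R272K and 149 ± 10.02 CPM with WT SMAD4 (0.25, adjusted p = 0.105), and NUF2, of the microtubule-binding NDC80 complex, stood at 0.26 (adjusted p = 0.215). Of 6 tested CENPA-loading genes 4 were higher and 0 called, with the CENPA chaperone gene HJURP at 0.12 (adjusted p = 0.371). Transcription factors of mitotic genes, listed together with the CDK inhibitor gene CDKN1A (-0.01), were divided 6 to 6 with 0 called. Among them the MuvB subunit gene LIN9 stood at -0.18 (adjusted p = 0.325). Cargo adaptors and other microtubule motors had 9 of 16 higher and 0 called, with the dynactin gene DCTN1 at 0.16 (adjusted p = 0.267) and the minus-end motor gene KIFC3 at -0.20 (adjusted p = 0.285, and -0.12 without WT replicate 1).

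Proliferation markers had 6 of 7 higher and 0 called, at a median log2 fold change of 0.02, where 49.7% of all genes were above 0. PCNA, MCM2, MCM6, RRM2 and TYMS lay near 0, between -0.02 (MCM2) and 0.04 (MCM6). TOP2A, the topoisomerase that separates sister chromatids, was at 600 ± 2.38 CPM with R272K and 533 ± 20.1 CPM with WT SMAD4 (0.17, adjusted p = 0.196), and MKI67, a marker of cycling cells, at 672 ± 17.96 CPM with R272K and 564 ± 92.5 CPM with WT SMAD4 (0.25, adjusted p = 0.247, and 0.12 without WT replicate 1). The share of proliferating cells was not measured, so its part in the kinesin values was not tested. The only called gene on the lists was the epithelial adhesion gene CDH1, which rose to 6.47 ± 0.313 CPM with R272K, against 2.59 ± 0.49 CPM with WT SMAD4 (1.33, adjusted p = 0.00174). Without WT replicate 1, 22 listed genes were called, all higher. Among them were 6 passenger and kinase genes, 6 spindle and cytokinesis genes, 2 proliferation markers and 3 epithelial genes. The outer kinetochore and checkpoint list gave 4, namely NDC80, NUF2 and SPC25 of the NDC80 complex and the checkpoint kinase gene BUB1. In that fit 5.36% of all genes were called and 2.94% called higher.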

How the data were processed

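Polyadenylated RNA of 6 libraries was analysed. The authors deposited raw read counts per symbol and, as a length-scaled signal of the same genes, TPM; fastp 0.23.0, HISAT2 2.1.0, SAMtools, HTSeq 0.10.0 and GRCh38 are named per the submitters' processing notes, while annotation release and strand setting are not stated in the sources used here. Each of the 62710 lines was reduced to 1 per symbol, since 453 symbols with several identifiers repeat their value. Count and TPM tables agreed up to 1 factor per library, which gave relative gene lengths. Duplicated lines make the deposited TPM sum to more than 1000000, so the distinct symbols were used.

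Genes were kept by edgeR's filter (minimum count 10, minimum total 15), counts were scaled by TMM, and R272K was tested against WT with edgeR's robust quasi-likelihood test on all 6 libraries, two-sided, with Benjamini-Hochberg adjustment over all 15911 genes tested and calls at an adjusted p under 0.05. The SE is the log2 fold change divided by the square root of F. Fits ran in R 4.3.3 with edgeR 4.0.16, DESeq2 1.42.0 and limma 3.58.1, and summaries in Python 3.11.15 with pandas 2.3.3, numpy 2.4.6 and matplotlib 3.10.9.

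Members, roles, partner lists and the naming rule were chosen with earlier results of these data known. Values in every library are given for called members, for members at an unadjusted p under 0.01, and in each role for the 2 of smallest p and the most abundant by TPM; from partner lists, the rule takes called genes and the 2 of smallest p, and some genes that it takes are not reported here. Library values of KIF11, KIF20A, KIF7 and CENPL were added after their values were seen. Alternatives were scaling by upper quartile, by RLE or by library size alone, a filter of 1 CPM in 3 libraries or none, DESeq2, limma-voom, a replicate block, each library left out in turn, limma on log2(TPM + 1) or log2(TPM + 0.1), and a loess offset that removes each library's trend with gene length. Replicates of a group differed by more than sampling noise (chi-square divided by its degrees of freedom was 1.80 or more). Exon overlap was read from GENCODE 29.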

Additional observations from a re-analysis of the deposited data

How the results depend on the processing

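The direction of the mitotic kinesin median and of CENPF was the same under all alternatives run. Counts of calls were less stable. As reported, 193 genes, 1 member and 1 partner gene (CDH1) were called, 9 members were higher and 1 lower at an unadjusted p under 0.05, and the mitotic median exceeded the transport median by 0.13 on the log2 scale. With 1 library left out, 55 to 875 genes, 0 to 3 members and 1 to 22 partner genes were called, 5 to 11 members were higher and 1 to 3 lower, and the median difference was 0.0834 to 0.14. With the length trend removed, 511 genes, 3 members and 8 partner genes were called, 2 members were lower and the difference was 0.17. With WT replicate 1 also left out, a pair of choices added after seeing the data, the values were 831, 3, 19 and 3 lower. Without a filter they were 474, 3, 5 and 2 lower, and with library size only 2 members were lower. DESeq2 called 2 members and 2 partner genes. Limma called 104 genes, 0 members and 2 partner genes on log2(TPM + 1), 101, 0 and 2 on log2(TPM + 0.1), and 37, 0 and 0 on log2(TPM + 1) without a filter. Means in place of medians gave a difference of 0.0838. The causes were not tested.

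Deviations from the group means were hardly correlated between same-numbered libraries (-0.065, -0.007 and -0.012). With 3 libraries per group, and labels that leave it unsaid, this cannot decide whether a number marks a shared culture or day. With the replicate number as a block 1 member and 3 partner genes were called. The block with the length trend removed gave 541 genes and 9 partner genes called, 2 members lower and a difference of 0.17. Members near 1 CPM (KIF4B, KIF26B, KIF5C and CENPS) had SEs of 0.27 to 0.35, so that small differences were not detectable for them at this depth.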
